A study of Mus musculus with 16 samples.

Results

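Heavy chain variable (Ighv) segments are the gene pieces from which the antigen-binding end of an antibody heavy chain is built. The segments described here were selected on their counts, as the entries of the count files whose gene identifier carries a symbol starting with Ighv and whose counts summed to 100 or more over the 16 files. That left 97 of 185 Ighv entries, among 55414 genes in all. The RNA came from mouse bone marrow cells treated with 5 µM actinomycin D, a drug that blocks transcription, for 0, 1, 3 or 5 h. There were 2 genotypes, one labelled Nat10-deficient and one labelled wild type (WT), and 2 files for each genotype at each time, 8 per genotype. Nat10 is the enzyme that acetylates cytidine in RNA, and the study used the time course to follow how long mRNAs last. Per the labels, all groups were lineage-depleted bone marrow cultured with stem cell factor, thrombopoietin and heparin, and long-term haematopoietic stem cells (LT-HSCs) were sorted at each time. The sample titles instead name 32D, a myeloid cell line, and write the mutant as Nat10-/-. The labels used here give no strain, age, sex, number of animals or Cre driver.

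In a developing B cell, one variable segment is joined to a diversity and a joining segment by V(D)J recombination, so that each B cell and its plasma cell descendants transcribe one productive combination. The mix of segments in a population of B-lineage cells therefore reflects the mix of clones, weighted by how much antibody mRNA each cell holds. Plasma cells, which secrete antibody and lodge in bone marrow, hold by far the most. Haematopoietic stem cells carry the locus unrearranged. Ighv11-2 and Ighv12-3 are known in mice from B-1 cells that bind phosphatidylcholine, and family 1, named J558 in older work, is the largest family of the locus.

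The last 300 bases of the coding sequence are shown for 6 segments because the account of single segments turns on them: 5 whose usage differed between the genotypes and Ighv6-3, whose usage stayed nearly even. They run to the end of the variable segment, on the minus strand of chromosome 12, and were taken from GENCODE M21 transcripts of build GRCm38. Capitals mark the last match of TANTNCTGN, which spells the tyrosine and cysteine codons at the end of the last framework region, after which the recombined part begins.
Ighv11-2: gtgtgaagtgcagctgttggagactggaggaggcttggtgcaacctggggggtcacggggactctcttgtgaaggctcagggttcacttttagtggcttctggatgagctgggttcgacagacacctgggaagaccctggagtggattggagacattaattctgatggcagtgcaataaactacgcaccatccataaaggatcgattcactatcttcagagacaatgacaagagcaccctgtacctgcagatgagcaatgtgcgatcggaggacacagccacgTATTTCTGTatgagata
Ighv5-16: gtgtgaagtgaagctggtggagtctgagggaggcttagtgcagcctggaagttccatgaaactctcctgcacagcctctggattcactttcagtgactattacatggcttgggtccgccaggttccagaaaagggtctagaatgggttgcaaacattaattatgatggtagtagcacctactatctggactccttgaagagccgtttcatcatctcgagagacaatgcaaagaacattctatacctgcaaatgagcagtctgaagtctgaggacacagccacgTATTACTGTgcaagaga
Ighv6-3: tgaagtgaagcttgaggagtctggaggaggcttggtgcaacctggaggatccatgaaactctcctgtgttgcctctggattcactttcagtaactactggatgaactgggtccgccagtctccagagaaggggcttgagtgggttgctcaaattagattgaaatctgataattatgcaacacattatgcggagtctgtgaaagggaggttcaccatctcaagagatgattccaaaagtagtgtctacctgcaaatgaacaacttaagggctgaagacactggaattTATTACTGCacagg
Ighv9-3: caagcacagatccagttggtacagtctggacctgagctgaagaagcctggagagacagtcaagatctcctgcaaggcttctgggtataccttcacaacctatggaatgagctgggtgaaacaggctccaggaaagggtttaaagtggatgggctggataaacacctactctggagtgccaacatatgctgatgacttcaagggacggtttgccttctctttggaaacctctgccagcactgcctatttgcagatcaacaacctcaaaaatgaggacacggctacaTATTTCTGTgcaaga
Ighv3-1: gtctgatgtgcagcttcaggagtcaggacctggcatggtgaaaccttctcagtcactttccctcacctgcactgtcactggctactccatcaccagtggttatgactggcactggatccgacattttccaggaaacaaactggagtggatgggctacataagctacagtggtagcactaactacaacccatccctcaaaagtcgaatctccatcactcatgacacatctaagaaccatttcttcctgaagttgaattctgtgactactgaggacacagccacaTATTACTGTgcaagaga
Ighv1-80: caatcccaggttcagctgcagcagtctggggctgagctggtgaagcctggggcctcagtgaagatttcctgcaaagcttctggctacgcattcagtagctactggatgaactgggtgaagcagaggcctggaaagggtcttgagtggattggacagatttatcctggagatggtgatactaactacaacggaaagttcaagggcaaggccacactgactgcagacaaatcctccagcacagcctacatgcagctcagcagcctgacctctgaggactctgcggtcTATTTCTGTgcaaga

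The marked letters lie 5 to 8 bases before the end of each of these sequences. On the coding strand, the only strand searched, they were found in 92 of the 97 segments (94.8%), in 50 of the 88 Ighv entries below the minimum and in 76.8% of all 185. The 6 segments differ widely in sequence, with pairwise identities of 59.0% (Ighv9-3 and Ighv3-1) to 74.6% (Ighv5-16 and Ighv6-3). Many segments have a close relative elsewhere in the locus, and reads that fit several places were not counted. The identity to the nearest other Ighv entry ranged from 74.7% to 99.7% with a median of 94.9%, and was at least 98% for 10 of the 97. Ighv11-2 is 98.9% identical to Ighv11-1, so the split of counts between these is uncertain, although Ighv11-1 held 352 counts over all files and Ighv11-2 held 169762. Ighv5-16 stands farther from its nearest relative, Ighv5-12, at 86.0%.

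The sums that chose the segments ranged from 103 to 241229 counts, with a median of 5150. Just inside the minimum stood Ighv8-4 with 103 counts, the pseudogene Ighv1-17-1 with 117 and Ighv3-4 with 144, and just outside stood the pseudogenes Ighv1-6 with 82, Ighv1-62 with 79 and Ighv1-79 with 74. Of the 97 segments, 95 are annotated as functional variable genes and 2 as pseudogenes. The 88 entries left out hold 68 of the pseudogenes, 29 entries with no count at all, and 0.0719% of the Ighv counts. Libraries labelled WT gave 73.8% of the counts of the 97 segments, so the sum favours segments used there. Still, 36 segments had 100 or more counts in every group, and 7 reached 100 in a single group only. All 97 passed the filter on low counts used for testing.

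Libraries held 9142413 to 17274128 counts in total and 17946 to 296960 Ighv counts. The 2 files of a group differed little beyond counting noise: over the segments with at least 20 counts in a pair, 65 to 95 of the 97 within groups, the chi-square per degree of freedom was 1.06 to 2.29 within groups, lowest between the WT files at 0 h, and 32.7 to 1033 between groups. In each of the 8 groups both file headers point to a single alignment. Every edgeR p-value below therefore measures the spread between files and not between separately sorted samples. The permutation tests exchange group means within times and do not use that spread. Nat10 mRNA, counted over the whole gene, averaged 111, 94.8, 95.6 and 154 counts per 1000000 gene counts (CPM) at 0, 1, 3 and 5 h in the libraries labelled Nat10-deficient, against 103, 99.2, 33.7 and 16.1 in WT. The label was thus not matched by a lower Nat10 level, and all directions rest on the labels as given.

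Ighv transcripts took a growing share of the WT libraries over the time course, whereas in the libraries labelled Nat10-deficient the share was highest at 3 h and lowest at 5 h. As a percentage of all gene counts, the 2 Nat10-deficient libraries held 0.202% and 0.204% at 0 h, 0.274% and 0.271% after 1 h, 0.846% and 0.844% after 3 h, and 0.124% and 0.121% after 5 h. In WT the shares were 0.152% and 0.153% at 0 h, 1.06% and 1.06% after 1 h, 2.003% and 1.99% after 3 h, and 2.18% and 2.16% after 5 h. The Nat10-deficient libraries were thus higher at 0 h and lower at the other 3 times. Averaged over the 4 times the share was 0.361% in Nat10-deficient libraries and 1.34% in WT, a difference of -0.984 percentage points with p = 0.25 (exact two-sided permutation test over the 16 exchanges of genotypes within the n = 4 times). In bulk RNA, fewer cells of a type and less RNA per cell cannot be told apart.

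The share moved with the other antibody genes and with the summed level of plasma cell markers, though not with each marker. The part of these genes in the result was not tested. All immunoglobulin genes together took 6.46% of gene counts at 0 h, 9.04% after 1 h, 24.6% after 3 h and 3.92% after 5 h in the first Nat10-deficient library of each time, against 3.63%, 25.7%, 49.6% and 59.7% in the first WT library. Of those counts, the Ighv segments made up 3.01% to 3.46% in Nat10-deficient libraries and 3.65% to 4.24% in WT, ranges that do not overlap. The summed level of 15 plasma cell markers averaged 6717, 9111, 30910 and 4446 CPM over the times in Nat10-deficient libraries, and 4144, 26511, 60333 and 73231 CPM in WT. Jchain, which links antibody chains into multimers, made up most of it. None of the 15 was at 0 in all files, but Mzb1, an antibody-folding factor, had no counts in WT at 0 h.

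Tested by edgeR against all genes, 12 of the 15 plasma cell markers were higher and 2 lower in Nat10-deficient libraries at 0 h (median log2 fold change 0.73), where 36% of all genes tested were higher and 24.2% lower. At 1 h none was higher and 13 were lower, against 32.4% higher and 31.8% lower among all genes. At 3 h none was higher and 14 were lower, against 30.4% and 37%. At 5 h all 15 were lower (median -5.36), against 34.2% higher and 30.1% lower among all genes. Xbp1, a transcription factor of secretory cells, averaged 647, 615, 498 and 71.7 CPM in Nat10-deficient libraries and 534, 1352, 1333 and 764 CPM in WT. Its CPM thus fell from 0 to 3 h in Nat10-deficient libraries and from 3 to 5 h in WT, while the Ighv share rose. The heavy chain constant regions had calls like those of the plasma cell list, 7 of 8 being higher at 0 h and all 8 lower at 5 h. Of 15 mature B cell markers, 9 were higher and 3 lower at 0 h, and none was higher and 11 were lower at 5 h. Their summed level was far below that of the plasma cell list, at 353 to 1524 CPM in Nat10-deficient groups and 583 to 2685 CPM in WT groups. Of 9 T cell markers, 5 were higher and 1 lower at 0 h and all 9 lower after 5 h, at summed levels of 6.62 to 57.7 CPM in Nat10-deficient groups and 29.7 to 72.2 CPM in WT groups, where Cd3d and Cd2 had no counts in Nat10-deficient libraries after 5 h.

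Of the 12 markers of blood stem cells, which the labels name as the sorted cells, 11 were lower in Nat10-deficient libraries and 1, Ly6a, was higher at 0 h. Of all genes, 24.2% were lower and 36% higher at that time. At 1 h all 12 markers were lower, against 31.8% of all genes. At 3 h 6 were lower and 3 higher, against 37% and 30.4% of all genes. At 5 h 9 were lower and 1 higher, against 30.1% and 34.2%. Their summed level was 1306, 1212, 860 and 338 CPM over the times in Nat10-deficient libraries, against 3244, 2441, 776 and 522 CPM in WT. Immunoglobulin genes, which are part of the CPM total, took 24.5% of gene counts at 3 h in Nat10-deficient libraries and 49.4% in WT. The order of the sums at 3 h and the size of the fall in WT therefore also reflect that share. Procr, a receptor of long-term stem cells, averaged 39.9 CPM at 0 h in Nat10-deficient libraries and 172 CPM in WT. The recombinase genes were near 0. Rag1 averaged 0.0297, 1.39, 0.0740 and 1.47 CPM in Nat10-deficient libraries and 2.65, 0, 0.270 and 0.857 CPM in WT, and Rag2 stood at 0 to 1.77 CPM in Nat10-deficient groups and 0 to 2.89 CPM in WT groups. Dntt, which adds bases at the joints, averaged 39.1 CPM at 0 h in Nat10-deficient libraries and 8.38 CPM in WT. Of the 14 early B cell and recombination genes tested, 7 were higher and 2 lower at 0 h, and 4 were higher and 4 lower at 5 h, the last near the shares of all genes. Their summed level was 327 CPM at 0 h and 369 CPM at 5 h in Nat10-deficient libraries, and 287 and 117 CPM in WT.

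**Figure D1:**
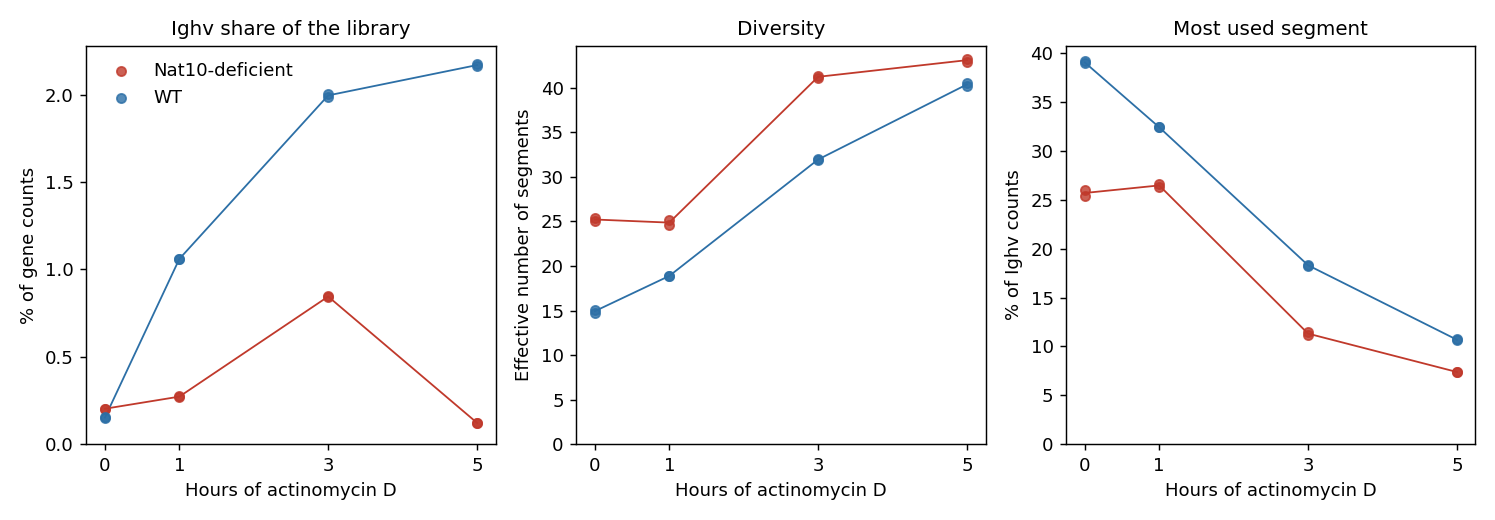
Share of Ighv counts among gene counts, effective number of segments, and share of the most used segment, against hours of actinomycin D, with 1 point per library and lines through the means of the 2 files (Nat10-deficient in red, WT in blue). The Ighv share reaches 2.18% in WT and at most 0.846% in Nat10-deficient libraries, while the effective number is higher in Nat10-deficient libraries at each of the 4 times.

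Segment use was more even in the libraries labelled Nat10-deficient at each time. The effective number of segments, the exponential of the Shannon entropy of the shares, equals the number of equally used segments that would give the same evenness. It was 25.4 and 25.05 at 0 h, 24.6 and 25.1 after 1 h, 41.3 and 41.1 after 3 h, and 42.9 and 43.3 after 5 h in Nat10-deficient libraries. In WT it was 14.8 and 15.1 at 0 h, 18.9 and 18.9 after 1 h, 31.9 and 31.98 after 3 h, and 40.6 and 40.2 after 5 h. At no time did the files of the genotypes overlap, and in both genotypes use was more even at 3 and 5 h than at 0 and 1 h. The means over the times were 33.6 in Nat10-deficient libraries and 26.5 in WT, a difference of 7.07 that was positive at 4 of 4 times. Of the 16 exchanges in the exact permutation test, 2 were as extreme, the fewest possible, so the design cannot reach the threshold of 0.05.

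The order was the same at equal depth. With every library thinned to 17946 Ighv counts, the effective numbers were 25.1, 24.8, 41.2 and 43.1 in Nat10-deficient groups and 14.8, 18.9, 31.6 and 40.2 in WT groups over the 4 times. Without Ighv5-16 and Ighv11-2, the segments that led most groups, the first library of each time had 37.1, 36.7, 44.5 and 41.8 in Nat10-deficient and 32.0, 34.96, 41.3 and 44.2 in WT, so that the order at 5 h turned round. The kappa light chain segments gave effective numbers of 25.2 and 24.97 at 0 h, 23.2 and 23.2 after 1 h, 39.5 and 39.4 after 3 h, and 42.2 and 42.7 after 5 h in Nat10-deficient libraries. Those in WT were 24.3 and 24.7, 27.8 and 27.9, 35.5 and 35.2, and 37.9 and 37.7. The light chain values thus spread over time in both genotypes too, and at 1 h stood lower in the Nat10-deficient libraries, where the heavy chain values stood higher. The difference between the chains was not tested.

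A few segments held much of the total. The most used one took 25.4% and 25.97% at 0 h, 26.7% and 26.3% after 1 h, 11.2% and 11.4% after 3 h, and 7.36% and 7.42% after 5 h in Nat10-deficient libraries. In WT it took 39.1% and 38.9% at 0 h, 32.4% and 32.4% after 1 h, 18.2% and 18.4% after 3 h, and 10.6% and 10.8% after 5 h. It was Ighv11-2 in Nat10-deficient libraries at 0, 1 and 3 h, Ighv6-3 there at 5 h, and Ighv5-16 in WT at all times. The mean over times was 17.7% in Nat10-deficient libraries and 25.1% in WT, a difference of -7.40 points, lower at 4 of 4 times (again 2 of 16 exchanges as extreme, the fewest possible). The most used segments that together reached 50% of the Ighv counts numbered 5, 5, 10 and 11 over the times in Nat10-deficient libraries and 3, 3, 7 and 9 in WT. At the other end, 33 of the 97 segments reached 1% of the Ighv counts in some group, 10 reached it in every group, and 8 reached 5% in some group.

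**Figure D2:**
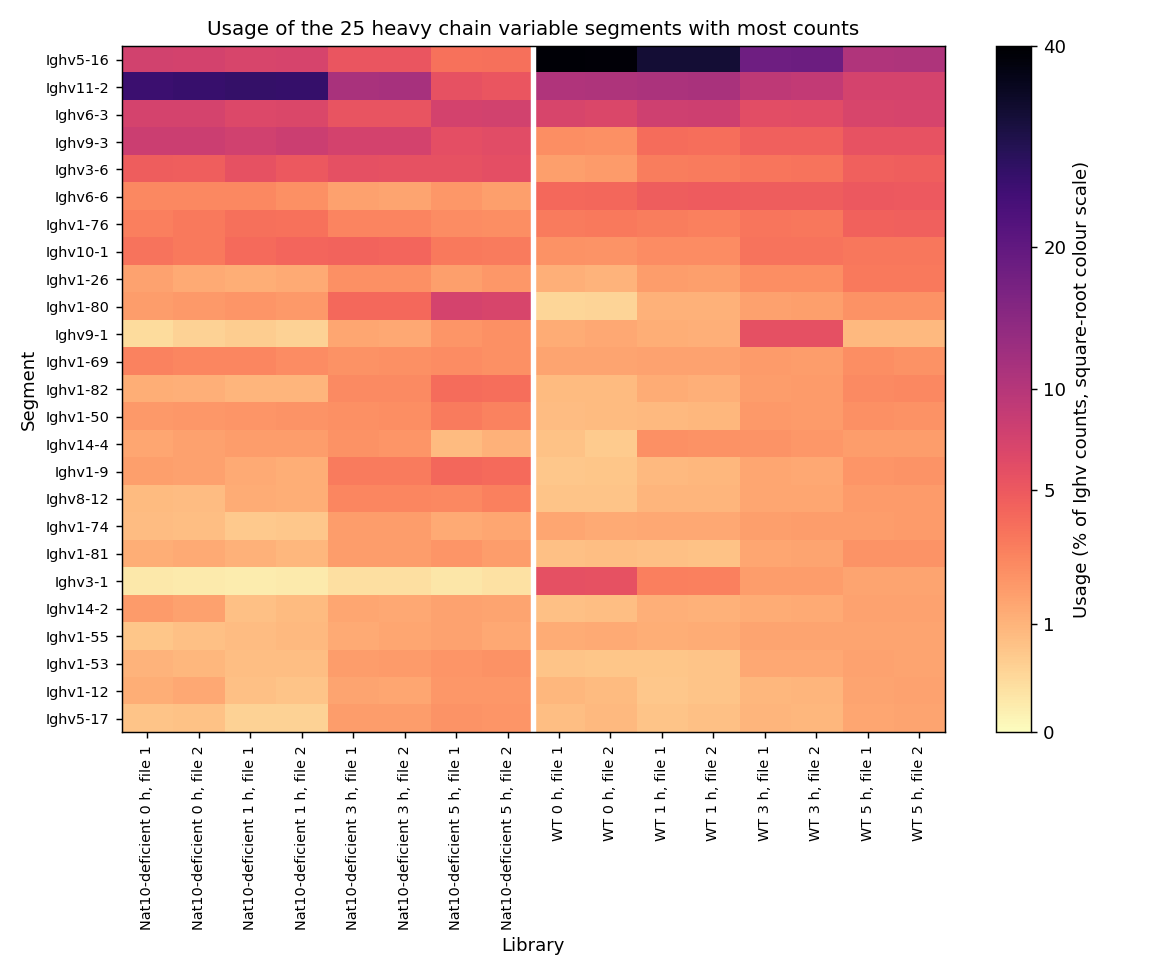
Usage, as percent of Ighv counts, of the 25 segments with most counts (rows, in order of their summed counts) in the 16 libraries (columns, Nat10-deficient left of the white line and WT right of it, each from 0 to 5 h). The dark cells are Ighv11-2 in Nat10-deficient libraries at 0 and 1 h, at 25.4% to 26.7%, and Ighv5-16 in WT at 0 and 1 h, at 32.4% to 39.1%.

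Ighv5-16 (ENSMUSG00000094194, chromosome 12, 113802146 to 113802630, GRCm39, minus strand) had the most counts of all segments and the largest difference between the genotypes in percentage points of usage, averaged over the times. It took 7.47% and 7.37% of Ighv counts at 0 h, 6.88% and 7.01% after 1 h, 5.22% and 5.19% after 3 h, and 3.44% and 3.61% after 5 h in Nat10-deficient libraries. The WT libraries stood at 39.1% and 38.9%, 32.4% and 32.4%, 18.2% and 18.4%, and 10.6% and 10.8%. Every Nat10-deficient library was below every WT library, and in both genotypes the share became smaller with time. Against all genes, with TMM library factors, the log2 fold change was -1.76 ± 0.026 at 0 h (SE, adjusted p = 1.07e-153), -4.24 ± 0.024 after 1 h, -3.35 ± 0.022 after 3 h and -7.04 ± 0.030 after 5 h (adjusted p = 1.26e-276). With libraries scaled on their Ighv counts, which measures usage alone, it was -2.40 ± 0.033 at 0 h and -1.60 ± 0.042 at 5 h (adjusted p = 1.54e-286 and 2.28e-159).

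Ighv11-2 (ENSMUSG00000096108, 114011861 to 114012432, GRCm39), the segment of phosphatidylcholine-binding B-1 cells, showed the reverse at the early times. Its usage was 25.4% and 25.97% at 0 h, 26.7% and 26.3% after 1 h, 11.2% and 11.4% after 3 h, and 5.54% and 5.22% after 5 h in Nat10-deficient libraries. In WT it was 10.6% and 10.7%, 11.1% and 11.2%, 9.19% and 8.86%, and 7.18% and 7.20%. The Nat10-deficient libraries were higher at 0, 1 and 3 h and lower at 5 h, and usage-scaled fold changes passed the threshold at each time (log2 1.27 ± 0.034, 1.25 ± 0.029, 0.33 ± 0.028 and -0.42 ± 0.039, the last with adjusted p = 5.87e-24). The level in CPM followed another course, averaging 522, 721, 956 and 65.9 CPM in Nat10-deficient libraries and 162, 1180, 1801 and 1560 CPM in WT. In WT the CPM at 5 h was thus far above that at 0 h while the usage was lower.

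Ighv12-3, the other segment known from B-1 cells of that kind, was rare and was also used more in Nat10-deficient libraries, at 5 h too (it is named here after its values were seen). Its usage was 0.250% and 0.201% at 0 h, 0.174% and 0.128% after 1 h, 0.0892% and 0.0961% after 3 h, and 0.0557% and 0.0268% after 5 h in Nat10-deficient libraries. In WT it was 0.00981% and 0.00537%, 0.0155% and 0.0165%, 0.00895% and 0.0135%, and 0.0101% and 0.00756%, all below every Nat10-deficient library. The usage-scaled log2 fold change was 4.85 ± 0.541 at 0 h (adjusted p = 2.86e-17) and 2.18 ± 0.550 at 5 h (adjusted p = 0.000109). The level rests on 156 counts in the Nat10-deficient group and 3 in the WT group at 0 h.

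Ighv6-3 (ENSMUSG00000076677, 114355332 to 114355789, GRCm39) was the most evenly used of the leading segments. It took between 5.38% and 7.42% of Ighv counts in Nat10-deficient libraries and between 5.90% and 7.89% in WT. The usage-scaled fold change was small in both directions, with log2 0.07 ± 0.043 at 0 h (adjusted p = 0.117), -0.23 ± 0.035 after 1 h, -0.15 ± 0.032 after 3 h and 0.09 ± 0.039 after 5 h (adjusted p = 0.0214). Against all genes the same segment moved widely, from 0.71 ± 0.036 at 0 h to -5.34 ± 0.030 at 5 h, as the whole Ighv share did.

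Ighv9-3 (ENSMUSG00000096459, 114104312 to 114104742, GRCm39) converged between the genotypes. Its usage was 8.05% and 8.01% at 0 h, 7.60% and 8.01% after 1 h, 7.31% and 7.30% after 3 h, and 5.75% and 5.99% after 5 h in Nat10-deficient libraries. In WT it was 2.27% and 2.17%, 3.77% and 3.63%, 4.48% and 4.50%, and 5.40% and 5.45%. All Nat10-deficient libraries were above all WT libraries, by a usage-scaled log2 of 1.86 ± 0.054 at 0 h and 0.11 ± 0.042 at 5 h (adjusted p = 7.75e-139 and 0.00927). Its family relative Ighv9-2 was lower, not higher, in Nat10-deficient libraries at both ends of the time course. It averaged 0.0749% at 0 h and 0.205% at 5 h in Nat10-deficient libraries, and 1.25% and 0.530% in WT. At 1 h it was lower too, at 0.479% and 0.580% against 0.938% and 0.944% in WT. At 3 h its usage was higher in Nat10-deficient libraries, at 0.560% and 0.580%, against 0.400% and 0.398% in WT.

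Ighv9-1 stood out in a single group, with 5.69% and 5.68% of Ighv counts in WT at 3 h, against 1.39% and 1.32% in Nat10-deficient libraries at that time. At the other times it took 0.206% and 0.326%, 0.419% and 0.332%, and 1.97% and 2.13% in Nat10-deficient libraries, and 1.23% and 1.29%, 1.16% and 1.10%, and 0.860% and 0.875% in WT. The WT libraries at 3 h thus stood far above those at 1 and 5 h, and their 2 files were close to each other. Its usage-scaled log2 fold change was -2.07 ± 0.045 at 3 h (adjusted p = 1.35e-192) and 1.24 ± 0.072 at 5 h (adjusted p = 7.66e-54).

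Ighv3-1 (ENSMUSG00000093838, 113928008 to 113928438, GRCm39) had far higher usage in WT. It took 0.0852% and 0.0708% at 0 h, 0.0521% and 0.0703% after 1 h, 0.172% and 0.167% after 3 h, and 0.100% and 0.156% after 5 h in Nat10-deficient libraries. The WT libraries held 5.69% and 5.58%, 2.84% and 2.75%, 1.68% and 1.70%, and 1.44% and 1.42%. The lowest WT library was above the highest Nat10-deficient one, and the usage-scaled log2 fold changes were -6.17 ± 0.113 at 0 h and -3.47 ± 0.144 at 5 h (adjusted p = 8.11e-225 and 3.57e-88). Its family member Ighv3-6 went the other way, at 4.52% to 5.85% in Nat10-deficient libraries and 1.65% to 4.53% in WT.

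Ighv1-80 (ENSMUSG00000094075, 115875964 to 115876396, GRCm39), a family 1 segment at the far end of the locus, gained usage with time in both genotypes. It took 1.70% and 1.82% at 0 h, 1.93% and 1.81% after 1 h, 3.97% and 3.97% after 3 h, and 7.22% and 6.90% after 5 h in Nat10-deficient libraries, against 0.270% and 0.312%, 1.05% and 1.07%, 1.54% and 1.63%, and 2.07% and 2.07% in WT. At each time the Nat10-deficient files were above the WT files, by a usage-scaled log2 of 2.61 ± 0.118, 0.82 ± 0.058, 1.32 ± 0.042 and 1.77 ± 0.048 (adjusted p = 9.69e-77 at 0 h and 1.80e-152 at 5 h). Its near neighbour Ighv1-82 took 3.72% and 3.68% at 5 h in Nat10-deficient libraries, and 2.40% and 2.46% in WT.

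Ighv10-3 and Ighv1-72 had higher usage in Nat10-deficient libraries at the early times. Ighv10-3 took 1.58% and 1.69% at 0 h, 2.10% and 2.22% after 1 h, 2.08% and 2.22% after 3 h, and 0.329% and 0.445% after 5 h in Nat10-deficient libraries, and between 0.457% and 0.882% in all 8 WT libraries. Ighv1-72 took between 0.944% and 1.19% in Nat10-deficient libraries, while in WT it averaged 0.259%, 0.390%, 0.699% and 1.07% over the times. Its usage-scaled fold change was 2.08 ± 0.142 at 0 h (adjusted p = 3.32e-40) and -0.17 ± 0.093 at 5 h (adjusted p = 0.0716), so a difference at 5 h did not pass the threshold. Ighv1-72 is 99.1% identical to Ighv1-62-3, an entry below the count minimum, and the split between them is uncertain.

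The 97 segments fall into 15 families. Family 1 has 49 of them and took 27.6%, 26.003%, 38.98% and 48.97% of Ighv counts over the times in Nat10-deficient groups, against 17.2%, 19.8%, 29.7% and 38.7% in WT groups. It was higher in Nat10-deficient groups at each time and spread over many segments, its leading member Ighv1-76 holding 10.7% of its counts. Family 5, with 9 segments, took 10.9%, 10.3%, 10.4% and 8.99% in Nat10-deficient groups and 41.4%, 35.1%, 22.1% and 15.5% in WT groups. This rests on Ighv5-16, which holds 78.3% of the family's counts. Family 11 was likewise nearly all Ighv11-2. Family 6 took 6.83% to 9.78% in Nat10-deficient libraries and 10.6% to 12.7% in WT, again without overlap, through Ighv6-6, at 1.46% to 2.49% in Nat10-deficient libraries and 3.93% to 4.97% in WT. Families 8, 10 and 14 stayed under 6.5% in every library.

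**Figure D3:**
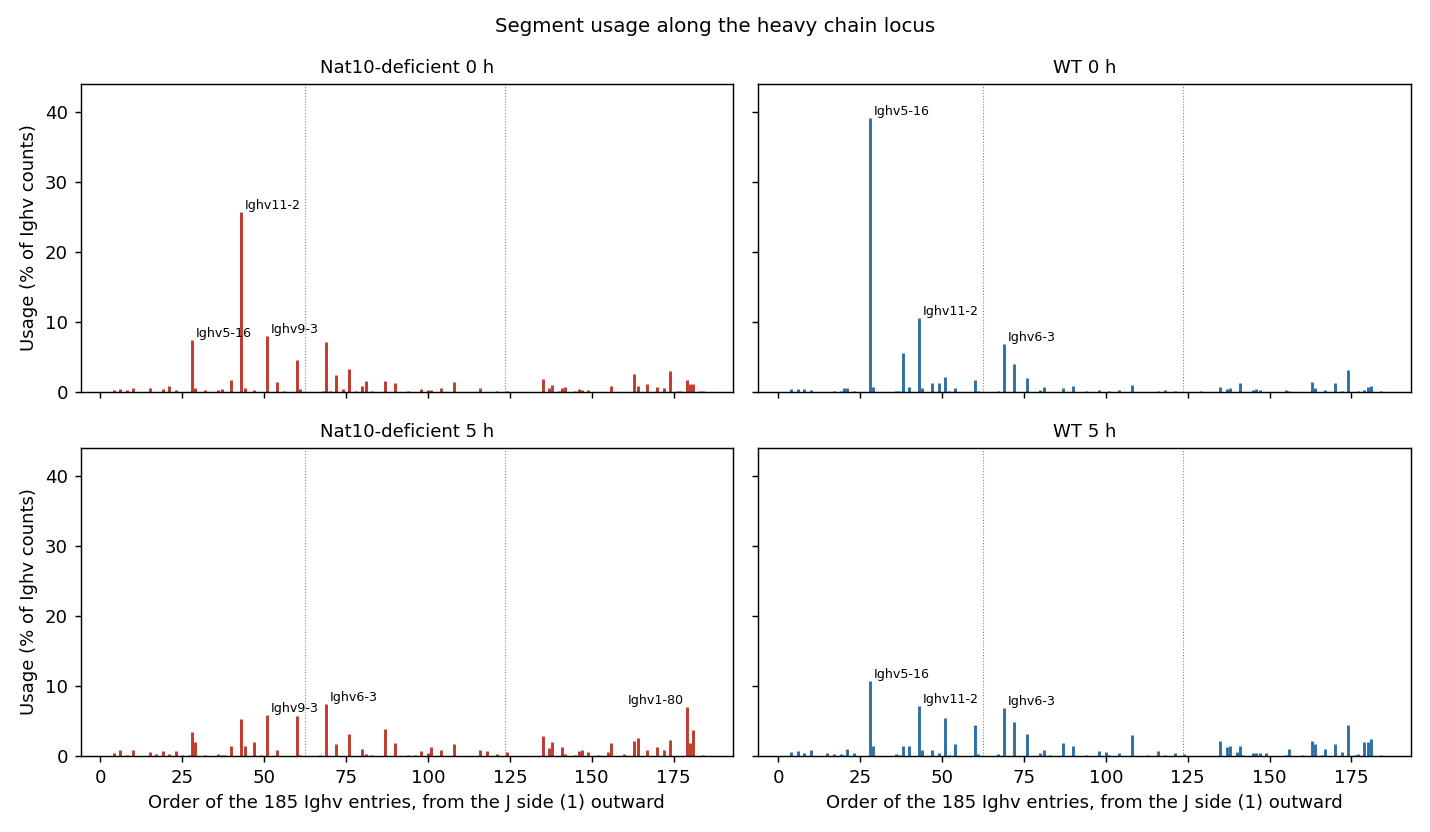
Usage (percent of Ighv counts, vertical bars, 1 per segment) against the order of the 185 Ighv entries from the joining segments outward, at 0 h (top) and 5 h (bottom), Nat10-deficient left and WT right. Dotted lines mark the 3 parts of the locus and the 3 most used segments of a group are named. The WT bar of Ighv5-16 at 0 h reaches 39.1%, and the distal part holds 37.3% in Nat10-deficient libraries at 5 h.

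Position along the locus followed the same trend as diversity. Measured in the files' coordinates, the segments begin between 149 and 2570 kb from the joining segments. Split by order into 3 parts of about equal size, the part nearest the joining segments (proximal) holds 34 of the 97 segments and took 55.9%, 56.6%, 44.5% and 35.2% of Ighv counts over the times in Nat10-deficient groups, and 68.2%, 63.4%, 53.3% and 42.9% in WT groups. The distal part, also with 34 segments, took 20.8%, 20.5%, 30.1% and 37.3% in Nat10-deficient groups and 13.7%, 15.8%, 23.9% and 29.9% in WT groups. At each time the Nat10-deficient groups used distal segments more and proximal ones less, and in both genotypes the distal share was highest at 5 h. Ighv5-16 holds 30.0% of the counts of the proximal part and Ighv11-2 and Ighv3-1 lie there too, so these differences are not independent of those of single segments. No test was made on these parts or on the families.

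The groups shared between 47.8% and 91.8% of their segment use. Overlap was taken as the sum over segments of the smaller of the 2 shares, which is 100% for identical usage, and the 2 files of a group gave 95.8% to 98.9%. Between the genotypes at the same time, the overlap was 55.6% at 0 h, 62.54% after 1 h, 74.9% after 3 h and 76.9% after 5 h, with a mean of 67.5%. Neighbouring times of the same genotype shared 91.8%, 77.6% and 82.8% in Nat10-deficient groups and 87.3%, 79.8% and 84.5% in WT groups, with a mean of 84.0% over all 6. Usage thus differed more between genotypes at a given time than between neighbouring times, at each of the 4 times, and both differed by more than the files of a group.

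Times farther apart within a genotype shared 62.2% to 76.7%, with a mean of 68.8%, close to the mean between genotypes at the same time. The lowest overlap of all was 47.8%, between Nat10-deficient at 5 h and WT at 0 h. The highest between genotypes was 81.3%, between Nat10-deficient at 3 h and WT at 5 h. Since all pairs are built from the same 8 groups, these overlaps are not independent of each other and are given as a description.

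**Figure D4:**
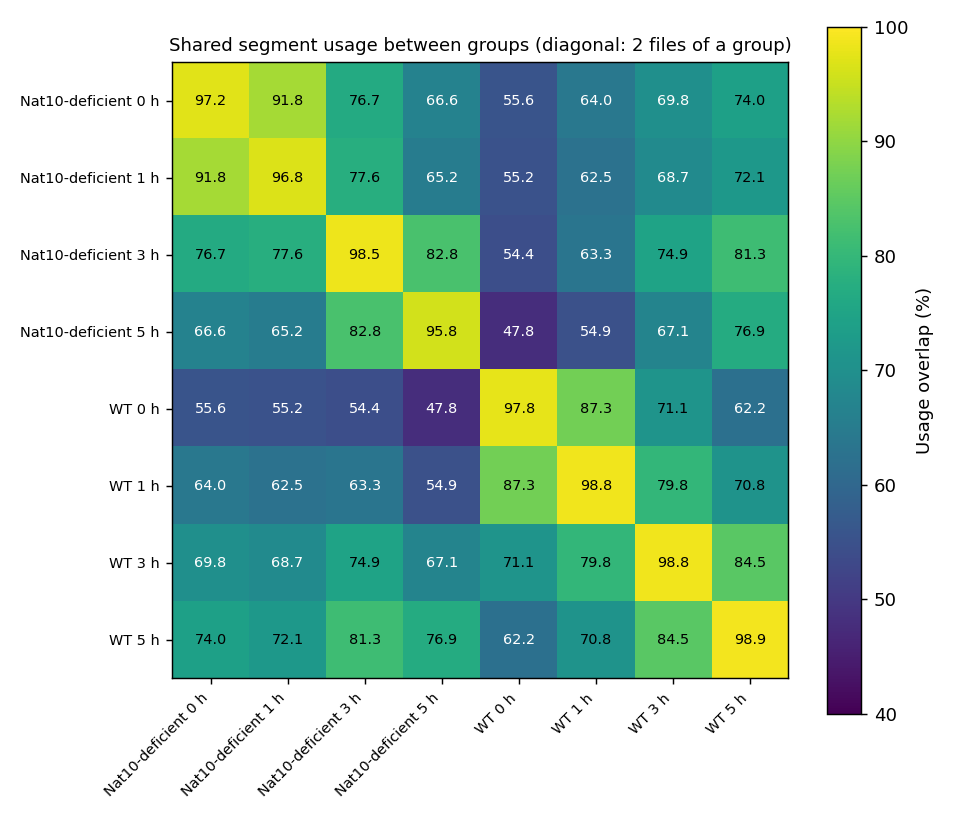
Overlap of segment usage in percent between the 8 groups (rows and columns, Nat10-deficient then WT, each from 0 to 5 h), with the overlap of the 2 files of a group on the diagonal. Neighbouring times of a genotype lie between 77.6% and 91.8%, and the same times of the 2 genotypes between 55.6% and 76.9%.

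Relative to all genes, the 97 segments moved together and changed direction between 0 h and the later times. The test was edgeR's quasi-likelihood F test over 25081 genes with Benjamini-Hochberg adjustment and a threshold of 0.05. At 0 h, 63 segments were higher and 12 lower in Nat10-deficient libraries, with a median log2 fold change of 1.20, where 36% and 24.2% of all genes tested were called higher and lower. At 1 h, 12 were higher and 74 lower (median -1.47, background 32.4% and 31.8%). At 3 h, 7 were higher and 76 lower (median -1.19, background 30.4% and 37%). Without the second WT file of that time, 4 were higher. At 5 h, 1 was higher and 95 lower (median -5.43, background 34.2% and 30.1%). The median of all genes was 0.10, 0, -0.07 and 0.10 at the 4 times, so the segments as a group lay well away from it. A large part of all genes passed the test at each time, and a single call has to be read against that.

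Averaged over the times, 5 segments were higher and 78 lower (median -1.71, background 31.6% and 21.6%). With the 2 files of a group summed to 1 library, a fit of genotype plus time called 0 higher and 4 lower (background 0.0319% and 0.0359%). That fit has no term for a genotype difference that changes with time, so such changes add to its spread. The count of 78 also treats the files as replicates, and the part of each was not tested. With 5 h left out of the mean, the main fit called 24 higher and 52 lower (background 31.8% and 23.8%, chosen after seeing the data). Scaled on the ERCC spike-ins, 86 were higher and 1 lower (background 71.5% and 0.00797%). The spike-ins were added in equal amount per the labels and took 0.0221% to 0.129% of counts in Nat10-deficient libraries and 1.79% to 2.92% in WT. On that scale the median of all genes was also higher by log2 5.54, and the median of the segments, at 4.01, lay 1.54 below it. No segment was higher at all 4 times on the TMM scale and 9 were lower at all 4, namely Ighv1-31, Ighv1-47, Ighv1-55, Ighv1-63, Ighv2-6, Ighv3-1, Ighv5-16, Ighv9-1 and Ighv9-2. Of all genes, 8.9% were higher and 2.91% lower at each time.

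**Figure D5:**
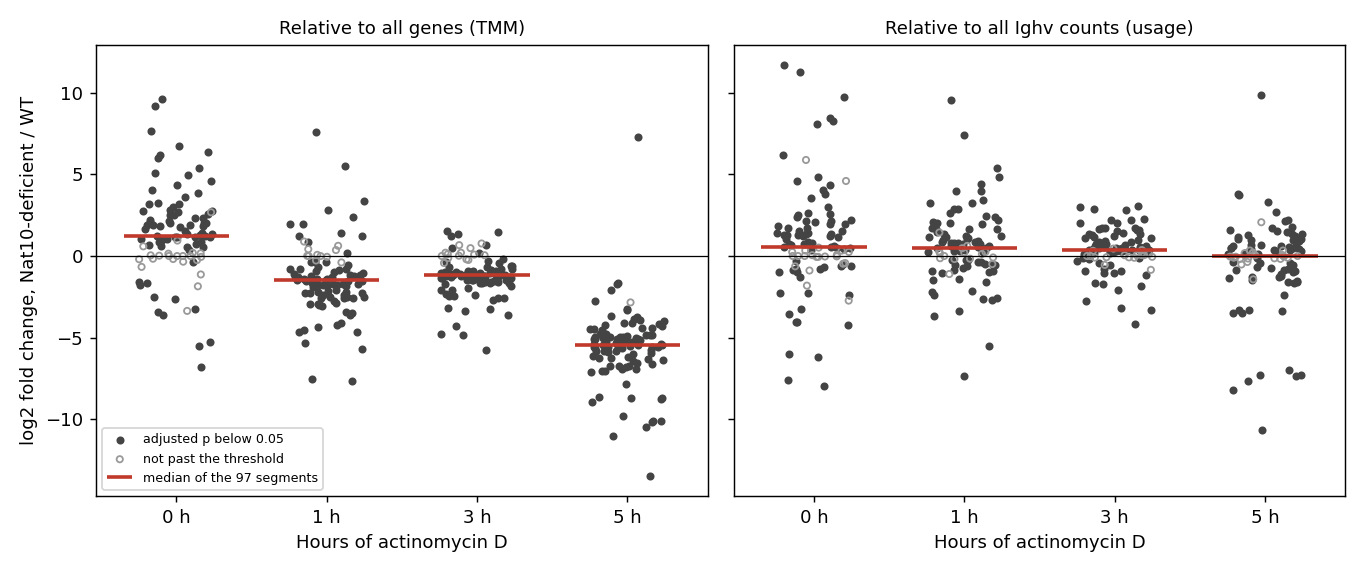
Log2 fold changes of Nat10-deficient over WT for the 97 segments (1 point each) at 0, 1, 3 and 5 h, relative to all genes on the left and to all Ighv counts on the right, with the median as a red line and segments past the threshold filled. The left medians are 1.20, -1.47, -1.19 and -5.43, while on the usage scale the points lie on both sides of 0 at each time.

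Scaling on Ighv counts removes this common movement and leaves usage. At 0 h, 52 segments were then higher and 23 lower in Nat10-deficient libraries, after 1 h 53 and 29, after 3 h 59 and 20, and after 5 h 40 and 36. The background on this scale is set by the Ighv share itself, with 16.1%, 68.6%, 57.8% and 83.7% of all genes called higher and 48.7%, 6.98%, 15.7% and 0.921% lower at the 4 times. Usage sums to 100% in each library, so a lower share of a large segment such as Ighv5-16 goes with higher shares of others. For the mean of the times, 54 were higher and 28 lower in usage (background 66.8% and 1.57%). At all 4 times 20 segments were higher and 7 lower in usage. The share of all genes called at all 4 times was not counted on this scale. It cannot exceed the smallest shares at a single time, 16.1% higher and 0.921% lower. The 20 include Ighv9-3, Ighv3-6, Ighv1-80, Ighv12-3 and 12 others of family 1 or 5, and the 7 are Ighv5-16, Ighv3-1, Ighv6-6, Ighv2-4, Ighv2-6, Ighv1-31 and Ighv8-8.

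The 8 libraries of each genotype did not overlap in usage for 13 segments. Higher in every Nat10-deficient library were 8 segments (8.25%), Ighv9-3, Ighv1-5, Ighv1-56, Ighv2-9, Ighv8-2, Ighv1-4, Ighv12-3 and Ighv2-6-8. Lower were 5 (5.15%), Ighv5-16, Ighv6-6, Ighv3-1, Ighv2-6 and Ighv2-4. Among 95 kappa variable segments, measured the same way within kappa counts, 11.6% were higher and 6.32% lower without overlap, so the heavy chain shares were not above those of the light chain. In CPM, 0 segments were higher and 3 lower (3.09%) without overlap, against 3.66% and 0.498% of all genes tested. Ighv1-5 took 0.782% to 1.25% of Ighv counts in Nat10-deficient libraries and 0.220% to 0.396% in WT. Ighv2-6 took at most 0.0483% in Nat10-deficient libraries and 0.150% to 0.623% in WT.

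Counts were at 0 in some group for 15 of the segments and above 0 in every group for 82. The groups with most segments at 0 were Nat10-deficient at 5 h with 7 and WT at 0 h with 11, the 2 genotypes' groups with the fewest Ighv counts. Bounds hold the group at 0 to 3 counts over its 2 files and compare libraries on the TMM scale, not in usage. They therefore include the common movement of the segments, whose median log2 fold change at 5 h was -5.43. Ighv1-77 had 0 counts in Nat10-deficient libraries and 1050 in WT at 5 h, at least 1038-fold lower. Ighv8-2 had 283 counts at 0 h in Nat10-deficient libraries and 0 in WT, at least 82.3-fold higher, and Ighv2-9 had 211 and 0, at least 61.4-fold higher. Ighv2-4 had 0 counts in Nat10-deficient libraries at 0, 1 and 5 h, and 3, 49 and 195 in WT. The 1 segment called higher at 5 h, the pseudogene Ighv1-17-1, had 43 counts in Nat10-deficient libraries and 0 in WT. It reached the minimum of 100 only through those counts, so its call supports nothing, and Ighv8-4 and Ighv3-4 likewise reached it only through WT at 5 h. These segments and the others in the last 2 paragraphs were named after their values were seen.

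Over the time course itself, the genotypes parted. In the Nat10-deficient libraries, 33 segments were higher and 35 lower at 5 h than at 0 h relative to all genes, with a median of 0.00, close to the background of 31.8% and 33.6%. In WT, 95 were higher and 1 lower, with a median log2 fold change of 6.71, against 30.2% and 34.1% of all genes. The change over time differed between the genotypes for 89 segments, 88 of them with a lower value in Nat10-deficient libraries (median of the difference -6.85, background 27.2% higher and 26.8% lower). On the usage scale, 50 segments rose and 24 fell from 0 to 5 h in Nat10-deficient libraries (background 43.9% and 23.9%), and 76 rose and 9 fell in WT (background 1.69% and 74.7%). Ighv5-16 and Ighv11-2 fell in both, Ighv5-16 by a usage-scaled log2 of -1.07 ± 0.046 in Nat10-deficient libraries and -1.87 ± 0.029 in WT (adjusted p = 8.52e-83 and 1.12e-264). The change in usage over time differed between the genotypes for 62 segments, being higher in Nat10-deficient libraries for 18 and lower for 44 (background 68.8% and 2.05%).

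The heavy chain classes changed along with the segments. Of the counts of the 8 constant regions, Ighm, the class made before switching, took 57.0%, 57.1%, 32.8% and 16.1% over the times in Nat10-deficient groups and 63.0%, 63.9%, 42.5% and 28.2% in WT groups. Igha, the class of mucosal antibody, took 22.6%, 22.5%, 44.97% and 61.7% in Nat10-deficient groups and 22.5%, 21.4%, 36.2% and 45.4% in WT groups. The share of Ighm was thus lower in Nat10-deficient groups at each time, and in both genotypes Igha replaced Ighm as the largest class with time (by 3 h in Nat10-deficient groups and by 5 h in WT groups). The 3 groups with most Igha, Nat10-deficient at 3 and 5 h and WT at 5 h, were also the 3 with the most even segment use and the most distal usage. The files hold counts per gene, so which segment was joined to which class was not measured, and the part of cell mixture in these shifts was not tested.

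Among the 10 listed transcription factors of heavy chain promoters and enhancers, 8 were higher and 1 lower in Nat10-deficient libraries at 0 h, and 3 were higher and 6 lower after 5 h, against 36% and 24.2% of all genes at 0 h and 34.2% and 30.1% after 5 h. Their summed level at 5 h was 436 CPM in Nat10-deficient libraries and 366 CPM in WT. Immunoglobulin genes are part of the CPM total and took 3.90% and 59.5% of gene counts there. A larger share of them lowers the CPM of every other gene, so these sums do not show a higher level against the remaining genes. Pou2af1, also on the plasma cell list, the B cell coactivator that binds octamer factors on variable segment promoters, averaged 66.3, 81.4, 88.6 and 5.35 CPM over the times in Nat10-deficient libraries and 61.0, 256, 322 and 219 CPM in WT. Its log2 fold change was 0.34 at 0 h and -6.64 at 5 h (adjusted p = 1.74e-08 and 1.06e-185 by edgeR). Pax5, the factor that sets B cell identity and is lost in plasma cells, stood below 1 CPM in every group. Ikzf1, which is active in many blood cells, averaged 191 CPM at 5 h in Nat10-deficient libraries and 54.6 CPM in WT.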

How the data were processed

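RNA was polyadenylated RNA of mouse bone marrow cells, made into libraries by Smart-seq2 with ERCC spike-ins, in 16 libraries (2 genotypes, 4 times, 2 files each). The authors deposited whole-number counts per gene from featureCounts 1.6.3 on Ensembl release 105 annotation of GRCm39, without strand and without reads that fit several places, per the file headers. STAR and DESeq2 are named in the submitters' processing notes, with no version given in the sources used here. Gene symbols and types were matched by gene identifier to GENCODE M21 for 52133 of 55414 genes (94.1%).

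CPM are counts per 1000000 gene counts, with immunoglobulin genes and without the 92 spike-ins. Where immunoglobulin genes took a larger share, the CPM of all other genes are lower for it. Usage is the percent of the counts of the 97 segments in a library. Fold changes came from edgeR 4.0.16 (R 4.3.3, limma 3.58.1) by the quasi-likelihood F test with TMM factors, a mean for each of the 8 groups, 25081 genes kept by filterByExpr and Benjamini-Hochberg adjustment over all of them. DESeq2 1.42.0, other scalings and left-out libraries were alternatives. The SE is the fold change over the square root of F. Single values per library were compared by exact permutation of genotypes within times. Other steps used Python 3.11.15, numpy 2.4.6, pandas 2.3.3, scipy 1.17.1 and matplotlib 3.10.9. The scripts were tested on simulated data.

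Depth was 9142413 to 17274128 counts per library. Bounds for a count of 0 use 3 counts over the 2 files, on the TMM scale, and cover counting error only. Segments were named by rule: the 2 most used in each group, and at each time the 2 with the largest change in each direction among those past the threshold with at least 1% usage in either group, which gave 10. The members, lists and tests were chosen with earlier results of these data known. The marker lists were written by hand and share genes, such as Pou2af1 and Pax5.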

Additional observations from a re-analysis of the deposited data

Results flagged for a closer look

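For all 10 segments named by rule, the genotype difference at 5 h was lower than that at 0 h relative to all genes, by a test of the difference itself (edgeR interaction term, log2, adjusted over all genes). The values were -7.76 ± 0.042 for Ighv11-2 (SE, adjusted p = 5.99e-253), -7.81 ± 0.054 for Ighv9-3, -6.05 ± 0.047 for Ighv6-3, -6.91 ± 0.102 for Ighv1-80 and -5.28 ± 0.042 for Ighv5-16. They were -8.33 ± 0.141 for Ighv1-72, -8.46 ± 0.127 for Ighv10-3, -3.37 ± 0.304 for Ighv3-1, -3.38 ± 0.319 for Ighv9-2 and -2.59 ± 0.153 for Ighv9-1 (adjusted p = 4.88e-41). The median over all 97 segments was -6.85, so Ighv3-1, Ighv9-2 and Ighv9-1 changed less than most.

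With libraries scaled on Ighv counts the same term was positive for Ighv9-1 (3.48 ± 0.141), Ighv9-2 (2.69 ± 0.292) and Ighv5-16 (0.80 ± 0.056), so that their direction depended on the scale. It was negative on both scales for Ighv11-2 (-1.69 ± 0.052 on Ighv counts) and Ighv1-72 (-2.26 ± 0.172). The summed level of plasma cell markers moved with the first scale, at 4446 CPM in Nat10-deficient libraries and 73231 CPM in WT at 5 h. The part of these markers in the result was not tested.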

How the results depend on the processing

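The Ighv share, the effective number of segments and the share of the most used segment kept the direction of their mean over the times under the alternatives run for it, and none could pass the threshold in this design. Without Ighv5-16 and Ighv11-2 the order of the effective numbers at 5 h turned round (41.8 and 42.1 in Nat10-deficient libraries, 44.2 and 43.8 in WT). Scaled on ERCC counts, the numbers of segments higher and lower in Nat10-deficient libraries were 88 and 0 at 0 h, 89 and 1 after 1 h, 94 and 0 after 3 h, 49 and 30 after 5 h, and 86 and 1 for the mean of the times, with the median of all genes higher by 6.24, 5.64, 5.19, 5.62 and 5.54 (log2). Of all genes, 87.3%, 84.5%, 80.8%, 84.2% and 71.5% were called higher in these comparisons, and 0.00797% to 0.694% lower. From 0 to 5 h on that scale, 4 segments were higher and 84 lower in Nat10-deficient libraries (background 3.39% and 77.0%). Their median log2 fold change was -2.62, near the -2.67 of all genes. In WT, 95 segments were higher and 1 lower over the same time on that scale. The median of the segments there was 4.49, against -2.03 for all genes. Scaled on Ighv counts, the numbers were 52 and 23, 53 and 29, 59 and 20, 40 and 36, and 54 and 28, with 50 higher over time in Nat10-deficient libraries, 9 lower over time in WT, and 18 and 44 for the interaction.

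Named segments reversed on the ERCC scale were Ighv3-1 (0.60) and Ighv9-2 (2.71) at 0 h, Ighv5-16 (1.49) at 1 h, Ighv3-1 (0.61) and Ighv9-1 (1.85) at 3 h, and, for the mean of the times, Ighv11-2 (4.26), Ighv9-3 (4.59), Ighv6-3 (3.60), Ighv1-80 (5.28) and Ighv5-16 (1.65). On the Ighv scale the means of Ighv11-2 (0.61), Ighv9-3 (0.94) and Ighv1-80 (1.63) reversed. These scalings redefine what each gene is set against. Summing the 2 files of a group, in a fit of genotype plus time, left 0 higher and 4 lower for the mean of the times. Of all genes, that fit called 0.0319% higher and 0.0359% lower. None of the 5 segments named for that mean passed. At 3 h, 4 segments were higher under DESeq2, under its size factors and without the second WT file, against 7, and leaving out single libraries gave 4 to 7. The mean of the times gave 2 higher without 0 h, 8 without 3 h and 24 without 5 h (background 30.7%, 33.7% and 31.8%).

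The 1 segment lower at 5 h than at 0 h in WT was 0 under DESeq2, its size factors, no filter and the replicate block, and 0 to 1 with single libraries left out (0 without the second WT file at 0 h or either at 5 h). Equal replicate numbers did not pair the files (correlations of -0.00785 to 0.0136 between their deviations), and the block moved no other count by over 1.5 times. The overlap between genotypes was 67.4 in both runs without a replicate, 67.2 when thinned and 67.4 with every Ighv entry, against 67.5. Overlap between neighbouring times was 83.7 to 84.0 without a replicate and 91.2 by the Morisita-Horn index, against 84.0. The cause of these shifts was not tested. The lowest Ighv depth, 17946 counts, limits what can be seen of rare segments.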
